A study of Mus musculus with 32 samples.

Results

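Fluoxetine-treated S100a10 bacTRAP mice were compared with group-housed mice in 2 fractions of the same cortical tissue type, and the quantity described here is the interaction: the change of a gene's mRNA on the tagged ribosomes minus the change of the same gene in the whole-cortex RNA. A gene that moved equally in both fractions has an interaction of 0. A positive value means that the gene rose more, or fell less, on the tagged ribosomes than in the cortex as a whole. It was computed from 24 of the 32 libraries of the series, and the 8 libraries of vehicle-treated single-housed mice were not used. All mice were adult males carrying the transgene Tg(S100a10-EGFP/Rpl10a)ES691Htz, a single founder line in which S100a10 regulatory elements drive the ribosomal protein L10a fused to EGFP. The Gh group was housed in groups, drank vehicle and was behaviorally normal. The Sh + Flx group had been housed singly from weaning, drank fluoxetine at 0.167 g/L for 21 days and was behaviorally normal. The Sh + Flx anxious group had the same housing and the same fluoxetine but was anxious by its label. Both drug groups thus differ from Gh in housing as well as in drug, and housing and drug cannot be told apart here. Each library pooled the cortices, without hippocampi and striata, of 3 mice, and every group holds 4 input libraries (total cortical RNA) and 4 TRAP libraries (polysomes pulled down with antibodies to EGFP).

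S100a10, also called p11, is a small EF-hand family protein that forms a complex with annexin A2, carries membrane receptors and channels to the cell surface and is required for behavioral responses to fluoxetine in mice. In the cortex it marks pyramidal neurons of layer 5a that project to the striatum and the opposite hemisphere. Translating ribosome affinity purification (TRAP) enriches mRNAs bound to ribosomes that carry the tag, and input gives the whole tissue for comparison. In bulk libraries, fewer cells of a type and less RNA per cell cannot be told apart.

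The 24 libraries held between 9776244 and 64788703 reads assigned to genes, and the shallowest was a Gh TRAP library. Gh TRAP 2 and 3 differed from each other by less than any other pair of replicates (mean chi-square per gene 1.13, against 5.29 to 106 for the other pairs) and were summed and counted as 1 sample, which left 11 TRAP and 12 input samples. Reads outside annotated features made up 34.7 to 39.8% of Gh TRAP, 30.001 to 35.8% of Sh + Flx TRAP, 25.2 to 33.2% of Sh + Flx anxious TRAP and 45.1 to 51.6% of the input libraries. Within TRAP the median share outside features was 37.3% in Gh, 32.6% in Sh + Flx and 28.6% in Sh + Flx anxious. The Sh + Flx range overlapped with Gh, and the anxious range lay below it. The part of this share in the interaction was not tested. In input, replicates 1 and 4 and replicates 2 and 3 were the most alike within every group (mean chi-square per gene 5.29 to 10.01, against 13.5 to 25.4 for the other pairs), and the labels give no reason for it. In TRAP, replicates 2 and 3 were the most alike within every group (1.13 in Gh, 23.5 in Sh + Flx, 15.3 in Sh + Flx anxious). Replicates 1 and 4 came next in Gh (15.1) and Sh + Flx (35.1), but not in Sh + Flx anxious (46.3). After summing, Gh TRAP held replicates 1, 4 and the sum of 2 and 3, and each fluoxetine TRAP group held replicates 1 to 4. The part of this grouping in the TRAP change was not tested. With replicates 1 and 4, and 2 and 3, summed in both fractions, so that each group held 2 samples, the interaction was called for 1 gene, against 185 as reported here. The study's methods name 4 biological replicates per condition. Nothing in the labels says whether replicates were prepared independently of each other, and p-values measure the spread between these samples.

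The tagged fraction was checked against cell type markers. S100a10 itself was 2.91 log2 units higher in TRAP than in input, averaged over the 3 conditions. Most genes differed between the fractions: of all 16800 tested, 11869 were called in either direction, 6141 of them higher in TRAP. The layer 5 intratelencephalic list as a whole did not stand above input: 5 of its 11 measured markers were called higher in TRAP, 5 were called lower, and their median was -0.07. Markers of meningeal fibroblasts were all called higher in TRAP (15 of 15, median 5.55), as were 12 of 14 endothelial markers (median 2.09) and 10 of 12 mural cell markers (median 2.03), while 16 of 16 interneuron markers and 12 of 14 oligodendrocyte markers were called lower (medians -1.01 and -1.14). The label of the fraction, layer 5a S100a10 neurons, was met by S100a10 and by part of the layer 5 list, and the pulled-down RNA also carried mRNAs that define meningeal and vascular cells. The summed level of the 15 meningeal markers in TRAP was 8432 to 10176 CPM (read counts divided by library size, scaled by TMM factors) in Gh, 7764 to 9889 in Sh + Flx and 6419 to 10835 in Sh + Flx anxious, which overlap. In input it was 241 to 278 CPM in Gh, 177 to 232 in Sh + Flx and 143 to 193 in Sh + Flx anxious, with both drug groups below every Gh library. The part of these cells in the results was not tested.

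Of 16800 genes tested, the interaction of 185 passed an adjusted p of 0.05 (edgeR quasi-likelihood test, Benjamini-Hochberg), which is 1.1% of the genes. They comprised 135 higher genes (0.804%) and 50 lower genes (0.298%), and 2318 genes had an unadjusted p under 0.05. The direction of these calls leaned on the scaling: with library size alone in place of TMM factors, 77 of 166 called genes were higher (46.4%, against 73% with TMM), and the median interaction of all genes was -0.04 in place of 0.02. Of the 135 higher genes, 79 were also called in TRAP alone, 42 in input alone, 6 in both and 8 in neither. The signs of the TRAP and input changes were opposite in 123 of the 135. Their median interaction was 0.73 on the log2 scale, made of a median of 0.45 in TRAP and -0.26 in input. Of the 50 lower genes, 30 were called in TRAP alone, 14 in input alone, 2 in both and 4 in neither, and the median interaction was -0.87 (-0.45 in TRAP, 0.29 in input). Both fractions therefore contributed to the interaction. Input is total cortical RNA and includes the tagged cells.

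**Figure D1:**
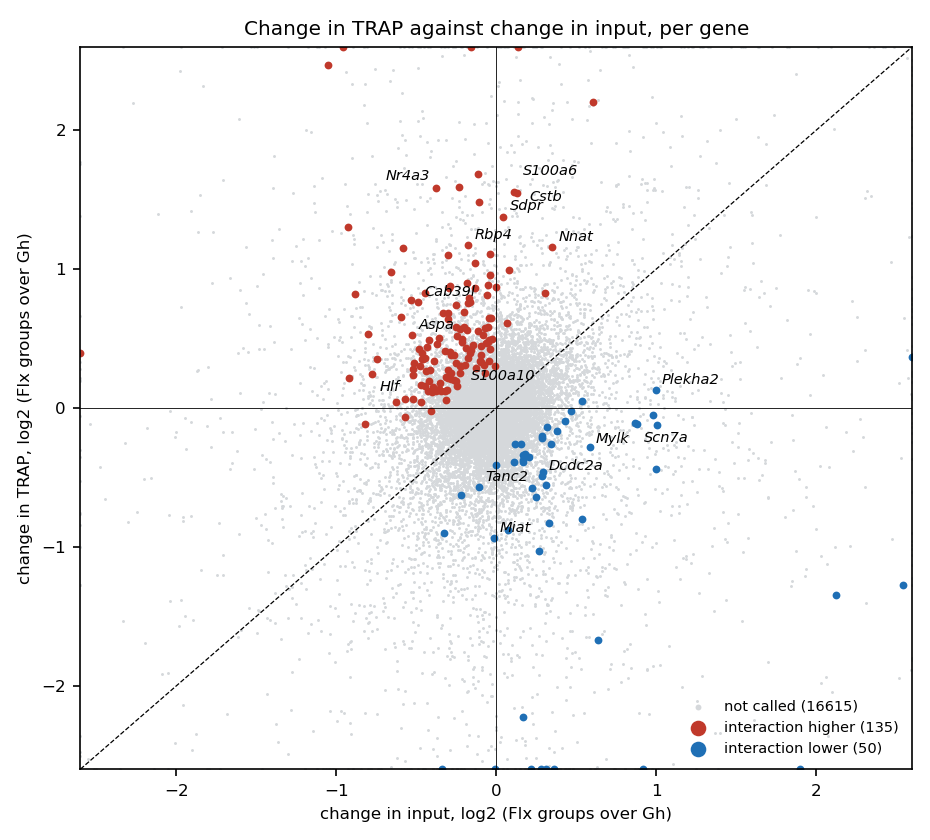
Each point is a gene; the horizontal axis is its log2 change in input and the vertical axis its log2 change in TRAP, both as the mean of the 2 fluoxetine groups over Gh. The 135 genes with a higher interaction (red) lie above the diagonal of equal change and the 50 with a lower interaction (blue) below it; most lie in the quadrants of opposite sign, and 298 genes beyond 2.6 are drawn at the edge.

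Seen from each fraction, most changes were not specific to it by this test. In TRAP 1042 genes were called (6.2%), 526 of them higher (3.13%) and 516 lower (3.07%) in the fluoxetine groups than in Gh. The interaction was called for 85 of those 526 (16.2%) and for 32 of those 516 (6.2%). In input 587 genes were called (3.49%), 290 of them higher (1.73%) and 297 lower (1.77%). The interaction was called for 16 of the input-higher genes (5.52%) and for 48 of the input-lower genes (16.2%). A gene called in TRAP and not in the interaction is not shown to be shared with input, since a test that misses its threshold leaves the difference undetermined. Without either of Gh TRAP 2 and 3, 49 genes were called, of which 44 were among the 185, and single input libraries also moved the count: it was 59 without Gh input 3, 82 without Gh input 2, 111 without Gh input 1, 103 and 95 without Sh + Flx input 1 and 4, and 110 and 99 without Sh + Flx anxious input 2 and 3. In a fit that also held the 8 unused libraries, whose TRAP members ranged from 11.2 to 64.6 CPM of S100a10, 8 genes were called.

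The interaction followed how strongly a gene was recovered with the tagged ribosomes. The median TRAP over input ratio was 1.09 on the log2 scale for the higher genes, -0.78 for the lower genes and -0.000369 for all genes tested. Among the higher genes, 124 of 135 had a ratio above 0, among the lower genes 16 of 50, and among all genes 8397 of 16800. Genes were then sorted by this ratio into 8 bins. In the bin over 2, 2.95% of 1457 genes were called higher and 0.343% lower, with a median interaction of 0.16. In the bin under -2, no gene of 314 was called higher and 2.87% were called lower, with a median of -0.21. The medians rose through every bin in between. In the 3 bins above 0.5 the median change was 0.03 to 0.06 in TRAP and -0.09 to -0.11 in input, the larger of the 2 being in input, while in the bin under -2 it was -0.31 in TRAP and -0.01 in input. The same libraries give both quantities, and the trend is a description.

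**Figure D2:**
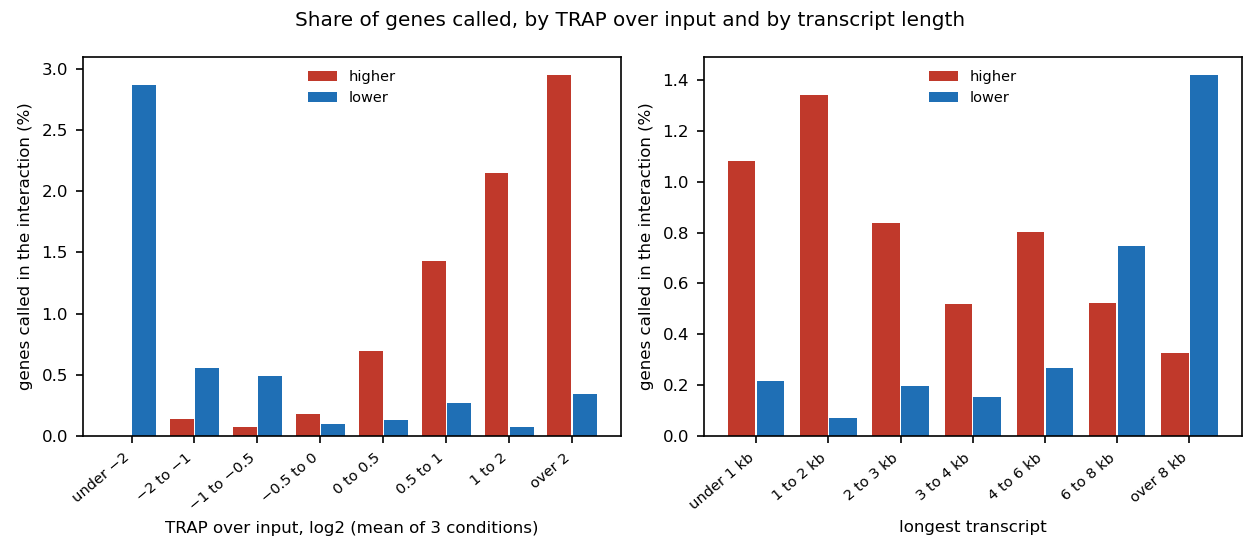
Bars show the percentage of genes called higher (red) or lower (blue) in the interaction, at left by the log2 ratio of TRAP over input and at right by the length of the longest annotated transcript. Higher calls rise with the ratio to 2.95% in the bin over 2, and lower calls are most frequent in the bin under -2 (2.87%) and among transcripts over 8 kb (1.42%).

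Transcript length moved with the interaction too. The longest annotated transcript had a median of 2662 bases in the higher genes, 5676 in the lower genes and 3272 in all genes tested. Of the genes with transcripts of 1 to 2 kb, 1.34% were called higher and 0.0703% lower. Of those over 8 kb, 0.328% were called higher and 1.42% lower. The median interaction went from 0.13 in transcripts under 1 kb to -0.12 in those over 8 kb. After each library's trend over length and GC content was removed, 218 genes were called (171 higher, 47 lower), 154 of them among the 185. Ptprt, Rpl10a and Calm2, named below, were among those no longer called.

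S100a10 (chromosome 3, 93555117-93564645, mm10) did not pass. Its level in TRAP was 55.1, 55.0 and 55.9 CPM in Gh, 48.1, 64.9, 67.7 and 40.8 in Sh + Flx, and 62.7, 70.6, 71.0 and 69.8 in Sh + Flx anxious. In input it lay between 5.72 and 10.8 CPM in all 12 libraries. All 4 anxious TRAP libraries were above Gh, whereas the Sh + Flx libraries fell on both sides of it. Its interaction was 0.35 (SE 0.20, adjusted p = 0.445), with an interval from -0.06 to 0.76.

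Among 22 measured S100 proteins and annexins, a list put together after values had been seen, 2 passed, both higher (0.804% of all genes did), and the median was 0.18 against 0.02 over all genes. S100a6 (calcyclin, a calcium-binding relative of S100a10; chromosome 3, 90612894-90614414) stood at 29.6, 32.1 and 27.2 CPM in Gh TRAP. It stood at 77.3, 81.2, 85.8 and 56.7 in Sh + Flx TRAP and at 113, 99.4, 91.7 and 100.2 in Sh + Flx anxious TRAP. In input all 12 libraries lay between 3.73 and 7.57. Every fluoxetine TRAP library was above every Gh TRAP library, as for 438 of the 16800 genes (2.61%), and the input groups overlapped. The interaction of S100a6 was 1.44 (SE 0.21, adjusted p = 0.000523). Anxa5, a calcium-dependent phospholipid-binding annexin, was at 216, 229 and 224 CPM in Gh TRAP, at 272 to 411 in the 8 fluoxetine TRAP libraries and at 24.5 to 36.7 in input, with an interaction of 0.68 (SE 0.13, adjusted p = 0.00876). Here too TRAP did not overlap and input did. S100a11, which is also found with annexins, had 0.56 (adjusted p = 0.0737), and Anxa2, the partner of S100a10, had 0.12. TRAP over input was 3.34 for S100a6, 3.32 for Anxa5 and 5.93 for S100a11 on the log2 scale.

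For the next genes the fluoxetine and Gh groups parted in TRAP, and no change in input was called. Cstb encodes cystatin B, an inhibitor of lysosomal cathepsins whose loss causes a progressive myoclonus epilepsy. It was at 49.0, 49.8 and 57.3 CPM in Gh TRAP, at 209, 149, 159 and 169 in Sh + Flx TRAP and at 153, 128, 111 and 153 in Sh + Flx anxious TRAP. Input was 7.87 to 16.7 throughout. The fluoxetine TRAP libraries all lay above the Gh ones and the input groups overlapped, and the interaction was 1.42 (SE 0.22, adjusted p = 0.00116). Sdpr, now called Cavin2, is a coat protein of caveolae. Its level was 80.4, 74.0 and 75.4 CPM in Gh TRAP, 155 to 284 in the 8 fluoxetine TRAP libraries and 6.72 to 11.2 in input. The TRAP groups did not overlap, and the interaction was 1.33 (SE 0.22, adjusted p = 0.00187).

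Tpm4, a tropomyosin that binds along actin filaments, was at 426 to 461 CPM in Gh TRAP, at 728 to 807 in Sh + Flx TRAP and at 526 to 653 in Sh + Flx anxious TRAP. The 3 TRAP groups were separate from each other, and the interaction was 0.78 (SE 0.13, adjusted p = 0.00199). Capzb, the beta subunit of the protein that caps actin filament ends, was at 320 to 358 CPM in Gh TRAP and at 406 to 471 in the fluoxetine TRAP libraries, with an interaction of 0.56 (SE 0.09, adjusted p = 0.00199). Slc25a17, a peroxisomal carrier, had 0.96 (SE 0.17, adjusted p = 0.00272). Snapc2, a subunit of the complex that starts transcription of small nuclear RNA genes, had 1.02 (SE 0.18, adjusted p = 0.00457), and Fam46a, a noncanonical poly(A) polymerase, had 1.18 (SE 0.22, adjusted p = 0.00547). For Capzb, Slc25a17, Snapc2 and Fam46a, as for Tpm4, every fluoxetine TRAP library was above every Gh one.

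Nlrp6, a sensor protein of inflammasomes, had the largest interaction among the named higher genes, at very low counts. In Gh TRAP 8 reads were counted in all, and in fluoxetine TRAP 953, a ratio of 34.7 after depth (95% counting interval 17.5 to 80.5, which covers counting error only). Its level was 0 to 0.142 CPM in Gh TRAP, 1.66 to 5.06 in the fluoxetine TRAP libraries and 0.194 to 1.495 in input. The interaction was 6.10 (SE 0.89, adjusted p = 0.000523), a value that depends on the handling of near-zero counts.

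In Aspa and Cab39l the fractions moved in opposite directions, each past its own test. Aspa encodes aspartoacylase, which splits N-acetylaspartate and is best known from oligodendrocytes. In TRAP it was at 46.8, 57.4 and 49.4 CPM in Gh, at 72.4, 70.3, 81.0 and 77.4 in Sh + Flx and at 61.8, 67.9, 73.1 and 86.9 in Sh + Flx anxious. In input it was at 29.5, 34.2, 39.7 and 32.0 in Gh, at 25.6, 24.1, 24.03 and 22.8 in Sh + Flx and at 24.9, 20.3, 21.5 and 24.8 in Sh + Flx anxious. Fluoxetine libraries were thus above all Gh libraries in TRAP and below all of them in input, the latter as for 508 of the 16800 genes (3.02%). The TRAP change was 0.53 (adjusted p = 0.0029), the input change -0.52 (adjusted p = 0.0011) and the interaction 1.05 (SE 0.14, adjusted p = 0.000347). Cab39l, a scaffold that activates the kinase LKB1, rose by 0.76 in TRAP and fell by 0.49 in input, with an interaction of 1.25 (SE 0.17, adjusted p = 0.000347). Its TRAP levels were 36.9 to 41.9 CPM in Gh and 53.5 to 81.9 in fluoxetine libraries, its input levels 26.1 to 36.3 and 17.95 to 24.9, and neither fraction overlapped.

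**Figure D3:**
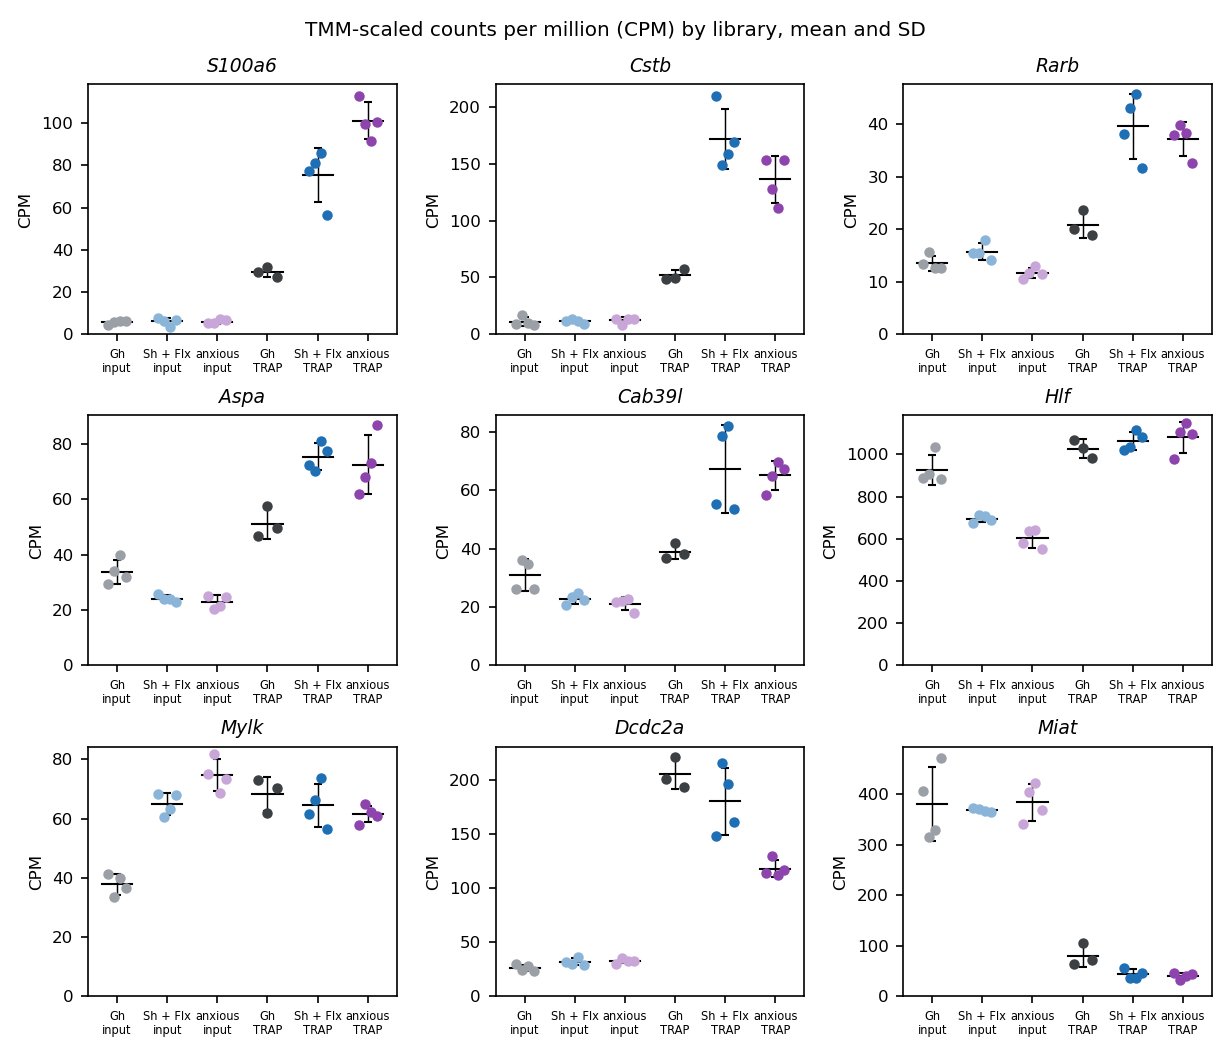
Levels of 9 genes in CPM (vertical axes, from 0) in the 6 groups, with a point per library, the mean as a bar and the SD as a whisker; Gh TRAP 2 and 3 are 1 point. S100a6, Cstb and Rarb are higher in fluoxetine TRAP with flat input, and Aspa and Cab39l part in both fractions. Hlf falls and Mylk rises in input with flat TRAP. Miat is lower in fluoxetine TRAP, while Dcdc2a is lower in Sh + Flx anxious TRAP and overlaps with Gh in Sh + Flx TRAP.

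Nnat differed from these in rising in both fractions. It encodes neuronatin, a small proteolipid of the endoplasmic reticulum that is expressed from the paternal allele. It was at 223, 235 and 255 CPM in Gh TRAP and at 460 to 665 in fluoxetine TRAP, and at 34.2 to 38.7 in Gh input and 39.5 to 53.9 in fluoxetine input. No group of either fraction overlapped with Gh. The change was 1.16 in TRAP (adjusted p = 7.2e-08) and 0.35 in input (adjusted p = 0.036), and the interaction was 0.81 (SE 0.14, adjusted p = 0.0023).

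For another set of higher genes the interaction went with a fall in input. TRAP was not always flat: of the 42 higher genes called in input alone, 39 rose in TRAP. Their median change was 0.20 in TRAP and -0.44 in input. Hlf, a PAR bZIP transcription factor with circadian expression, was at 887, 906, 1034 and 882 CPM in Gh input, at 674 to 712 in Sh + Flx input and at 551 to 639 in Sh + Flx anxious input. In TRAP the fluoxetine libraries, at 977 to 1147, spanned the Gh values of 981 to 1070. The input change was -0.52 (adjusted p = 1.2e-06), the TRAP change 0.06 and the interaction 0.58 (SE 0.09, adjusted p = 0.000834). Pla2g16, a phospholipase A2 and acyltransferase, also fell in input, with a change of -0.46 (adjusted p = 0.0041). Its interaction was larger than that fall, at 0.82 (SE 0.15, adjusted p = 0.00459).

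Of the list of astrocyte markers, Glul was in this set. Ndrg2, Ldhb and Csrp1 are not on that list and were picked with their values in view. Glul (glutamine synthetase, which clears synaptic glutamate) was at 906 to 1012 CPM in Gh input and at 680 to 807 in fluoxetine input, with no overlap, and its interaction was 0.50 (SE 0.11, adjusted p = 0.0231). Ndrg2, an astrocytic member of the NDRG family, had an input change of -0.41 and an interaction of 0.69 (SE 0.14, adjusted p = 0.00876). Ldhb, the heart-type subunit of lactate dehydrogenase, had -0.40 in input and an interaction of 0.55 (adjusted p = 0.0146). Csrp1, a LIM-domain protein, had -0.47 in input and an interaction of 0.86 (adjusted p = 0.00876). Of the 14 astrocyte markers, 2 passed in the interaction (0.804% of all genes passed higher), Glul and Aldoc (aldolase C, 0.73, adjusted p = 0.027), and the list's median was 0.12. Aldoc was not of this set. By edgeR it rose in TRAP by 0.41 (adjusted p = 0.0439), and its input change of -0.32 did not pass (adjusted p = 0.109). In input 1 marker was called lower, Glul, and 1 higher, Gfap, with a list median of -0.03. Gfap rose by 0.85 in input (adjusted p = 0.000912) and by 0.87 in TRAP (adjusted p = 0.0021). The summed astrocyte markers overlapped between the groups within each fraction (6279 to 7421 CPM in Gh TRAP, 5362 to 8196 in fluoxetine TRAP, 4141 to 5445 in Gh input, 4171 to 5852 in fluoxetine input). Without the most abundant marker, the sum in input was 1802 to 2095 CPM in Gh, above all Sh + Flx libraries (1599 to 1699.8) and overlapping with Sh + Flx anxious (1584 to 1829.9), while TRAP overlapped as before. The part of these cells in the values was not tested. Glul, Aldoc and Ldhb were each called in 22 of the 24 fits that left out a library; the largest adjusted p was 0.0669 for Glul and came without Gh input 3, and it was 0.0677 for Aldoc and 0.0507 for Ldhb, both without Gh input 2. Glul, Aldoc, Ldhb and Ndrg2 were not called without Gh TRAP 2 and 3.

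Of 14 oligodendrocyte markers measured, 1 passed in the interaction (Aspa; 0.804% of all genes passed higher), 10 were positive, and the median was 0.30. In input 6 of them fell and none rose (1.77% of all genes fell), with a median change of -0.51. In TRAP 3 fell (3.07% of all genes) and 1 rose (3.13%), with a median of -0.19. Their summed level in input was 2297 to 2590 CPM in Gh, 1788 to 1843 in Sh + Flx and 1446 to 1752 in Sh + Flx anxious, with no overlap with Gh, and in TRAP it was 1048 to 1131 in Gh and 687 to 1164 in the fluoxetine libraries, which overlap.

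The lower genes whose interaction came mainly from TRAP were led by Dcdc2a, a doublecortin-domain protein that binds microtubules. It was at 201, 221 and 194 CPM in Gh TRAP, at 149, 216, 196 and 161 in Sh + Flx TRAP and at 114, 130, 113 and 116 in Sh + Flx anxious TRAP, and at 23.9 to 36.6 in input. The anxious libraries lay below all others and the Sh + Flx libraries overlapped with Gh. The interaction was -0.78 (SE 0.13, adjusted p = 0.00229), with -0.46 for Sh + Flx (adjusted p = 0.22) and -1.10 for Sh + Flx anxious (adjusted p = 0.0004).

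Adcy1, the calcium-calmodulin-stimulated adenylyl cyclase, was at 390, 466 and 382 CPM in Gh TRAP and at 295 to 368 in fluoxetine TRAP, without overlap (fluoxetine below Gh in TRAP held for 1.99% of all genes). Its input was 466 to 525 in Gh and 534 to 602 in fluoxetine libraries, also without overlap (fluoxetine above Gh in input held for 2.88%). Both fractions of Adcy1 thus parted, in opposite directions. Its interaction was -0.51 (SE 0.10, adjusted p = 0.00762). Akap11, an anchoring protein for protein kinase A, was at 296 to 383 CPM in Gh TRAP and at 233 to 282 in fluoxetine TRAP, with an interaction of -0.50 (SE 0.10, adjusted p = 0.00876). Tanc2, a postsynaptic scaffold, was at 350 to 437 and at 219 to 306 CPM, with -0.46 (adjusted p = 0.0171). Dcp2, the mRNA decapping enzyme, had -0.56 (adjusted p = 0.0109) and Atp11b, a phospholipid flippase, -0.56 (adjusted p = 0.0233). Scn1a, a voltage-gated sodium channel subunit, fell in both fractions, by 0.62 in TRAP and by 0.22 in input, for an interaction of -0.40 (adjusted p = 0.0333). Fbxl16, an F-box protein, fell by 0.90 and by 0.33, for -0.57 (adjusted p = 0.0352). Without Gh TRAP 2 and 3 none of these genes from Adcy1 on was called, and Tanc2, Atp11b, Scn1a and Fbxl16 were called in 23, 22, 17 and 17 of the 24 fits that left out a library, with the largest adjusted p of 0.0525, 0.0739, 0.0789 and 0.113 without Gh input 3, Gh input 3, Gh input 2 and Gh TRAP 4.

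Miat, a long noncoding RNA kept in the nucleus, was at 63.6, 105 and 72.4 CPM in Gh TRAP and at 32.1 to 56.3 in fluoxetine TRAP, against 314 to 472 in input. The TRAP groups did not overlap, and the interaction was -0.92 (SE 0.18, adjusted p = 0.00876). Some exon bases of Miat also belong to Gm26953 (24.3%). Of 13 measured nuclear long noncoding RNAs Miat alone passed (0.298% of all genes passed lower), 10 were negative and the median was -0.37. In TRAP 6 of the 13 fell and none rose, where 3.07% of all genes fell and 3.13% rose. Meg3 (-0.56, adjusted p = 0.0621) and Malat1 (-0.31) did not pass. Miat, Meg3 and Malat1 were poorly recovered with ribosomes (TRAP over input of -2.85, -2.90 and -3.06 on the log2 scale). The share of reads outside features was below Gh TRAP in Sh + Flx anxious TRAP and overlapped with it in Sh + Flx TRAP, as given above. The part of this share in these values was not tested. Miat was not called without Gh TRAP 2 and 3.

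Of the remaining lower genes called through TRAP, 3 carry a doubt about their counts. Sbspon, a secreted somatomedin B domain protein, had -2.31 (SE 0.45, adjusted p = 0.00876) at 2.62 to 3.10 CPM in Gh TRAP and 0.357 to 1.64 in fluoxetine TRAP, but 72.8% of its exon bases also belong to Gm37509. Tmem181b-ps, a pseudogene with an expressed parent family, had -0.88 (adjusted p = 0.00876), between -1.03 and -0.55 under other settings, and was not called without Gh TRAP 2 and 3. Adam3, a sperm surface gene, had 42 reads in Gh TRAP and 1 in fluoxetine TRAP, a ratio of 144 (95% counting interval 24.5 to 5838), and an interaction of -6.73 (SE 1.499, adjusted p = 0.0275) that was called in 10 of the 12 fits without a library in which it was tested, with the largest adjusted p of 0.0681 without Gh input 3.

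The strongest lower gene, Mylk, owed its interaction to input. It encodes myosin light chain kinase, which triggers contraction in smooth muscle. In input it was at 41.5, 33.4, 39.8 and 36.7 CPM in Gh, at 68.3, 60.6, 63.4 and 67.9 in Sh + Flx and at 75.2, 82.0, 68.8 and 73.4 in Sh + Flx anxious. In TRAP it was at 73.0, 62.0 and 70.3 in Gh, at 61.5, 66.2, 73.8 and 56.6 in Sh + Flx and at 58.0, 64.9, 62.3 and 61.1 in Sh + Flx anxious. The input groups were separate (fluoxetine was above Gh in input for 2.88% of all genes) and the TRAP groups overlapped. The input change was 0.88 (adjusted p = 3.4e-07), the TRAP change -0.12 (adjusted p = 0.5) and the interaction -0.998 (SE 0.12, adjusted p = 5.83e-05).

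Plekha2, a phosphoinositide-binding adaptor, likewise rose in input by 0.996 (adjusted p = 5e-07), from 16.7 to 18.3 CPM in Gh to 30.05 to 39.5 in fluoxetine libraries, and its interaction was -0.87 (SE 0.15, adjusted p = 0.00229), with 17.2% of its exon bases shared with Gm16933. Scn7a, an atypical sodium channel of salt-sensing glia, rose in input by 0.87 and had -0.98 (SE 0.21, adjusted p = 0.0163). Ptprt, a receptor tyrosine phosphatase, rose in input by 0.43 and had -0.53 (adjusted p = 0.0275). Samd8, a ceramide phosphoethanolamine synthase, rose in input by 0.38 and had -0.55 (adjusted p = 0.029). For these 4 genes the input groups did not overlap and the TRAP change did not pass. Ptprt and Samd8 were called in 21 and 22 of the 24 fits without a library, and the largest adjusted p, without Gh input 3, was 0.0739 and 0.0864. Neither was called without Gh TRAP 2 and 3.

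Genes that store, activate and sense retinoids were followed as a list of 23 put together after Rarb had been seen, of which 18 were measured. Retinoic acid is made from retinol by dehydrogenases, degraded by Cyp26 enzymes and read by nuclear receptors that bind direct repeats of a hexamer in their target genes. In the list 2 genes passed higher, of which Rarb prompted the list, and 1 passed lower (0.804 and 0.298% of all genes), 13 were positive and the median was 0.27. Rarb encodes retinoic acid receptor beta, which is itself a textbook target of retinoic acid. It was at 19.98, 23.7 and 19.0 CPM in Gh TRAP, at 38.03, 43.0, 45.7 and 31.7 in Sh + Flx TRAP and at 37.9, 39.9, 38.3 and 32.5 in Sh + Flx anxious TRAP. Input was 10.6 to 17.9. Fluoxetine and Gh libraries were apart in TRAP and mixed in input, and the interaction was 0.87 (SE 0.16, adjusted p = 0.00762). Of the exon bases of Rarb, 34.1% overlap with Top2b on the opposite strand, and the library kit did not mark strand.

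The promoter of Rarb is shown because it carries the direct repeat that makes this gene a known retinoid target. It lies inside the gene (chromosome 14, 16430839-17082331) before an internal start site and touches no annotated exon (RefSeq, GRCm38.p6, chr14:16575477-16575726, minus strand, 250 bases before the start).
Rarb promoter: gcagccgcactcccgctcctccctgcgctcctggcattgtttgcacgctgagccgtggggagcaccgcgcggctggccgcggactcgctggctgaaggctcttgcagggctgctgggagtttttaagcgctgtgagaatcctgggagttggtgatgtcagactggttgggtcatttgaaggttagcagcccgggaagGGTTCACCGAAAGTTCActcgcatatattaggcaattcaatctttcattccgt
The capitals mark a match to the DR5 pattern, a pair of hexamers in the same direction with 5 bases between them, each hexamer being A or G, then G, then G or T, then TCA, 53 to 37 bases before the start. Both strands of the 250 bases before each start were searched. DR5 was found in 24 of 27025 RefSeq promoters (0.0888%), in 1 of the 106 higher genes with a promoter entry and in 0 of the 37 lower ones. The single hexamer AGTTCA, which this match contains, was found in 11.9% of all promoters. The match is a description of these letters.

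A binding protein of retinol was higher as well. Rbp4, the carrier of retinol in plasma, was at 9.60, 8.08 and 12.5 CPM in Gh TRAP, at 19.1 to 27.7 in fluoxetine TRAP and at 3.78 to 8.43 in input, with an interaction of 1.35 (SE 0.26, adjusted p = 0.0087). The fluoxetine and Gh libraries did not overlap in TRAP. Cyp26b1, which breaks down retinoic acid, was lower: 47.4, 53.3 and 46.3 CPM in Gh TRAP against 22.9, 40.1, 39.5 and 18.7 in Sh + Flx TRAP and 20.7, 32.5, 30.1 and 18 in Sh + Flx anxious TRAP, with an interaction of -1.15 (SE 0.27, adjusted p = 0.0352). Within both fluoxetine groups, replicates 2 and 3 were higher in Cyp26b1 than replicates 1 and 4.

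Other members did not pass in the interaction. Stra6, the receptor that takes retinol up from Rbp4, rose in TRAP by 1.65 (adjusted p = 7.1e-09) and in input by 0.91 (adjusted p = 0.0019), and its interaction was 0.74 (adjusted p = 0.0882). Rdh10, which oxidizes retinol, had 0.76 (adjusted p = 0.0631). Rara, the alpha receptor, had -0.69 (adjusted p = 0.093) after a rise of 0.93 in input, and Aldh1a2, which makes retinoic acid in the meninges, had 0.34. TRAP over input was 5.85 for Stra6, as high as for the meningeal markers, and 1.21 for Rarb. Cyp26b1 was called in 16 of the 24 fits without a library, with the largest adjusted p of 0.0874 without Gh input 3, and Rbp4 and Cyp26b1 were not called without Gh TRAP 2 and 3.

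The meningeal list was positive in 13 of 15 members in the interaction, with a median of 0.34, but 0 passed. In TRAP 6 of its genes rose (3.13% of all genes) and 1 fell (3.07%), the latter being Igf2 (-0.67, adjusted p = 0.00203 by edgeR). Col1a1 (0.90) and Col3a1 (1.05), fibrillar collagens, were among those that rose. In input 2 rose (1.73% of all genes) and 5 fell (1.77%), Igf2 by 0.92 (adjusted p = 2.71e-05). Endothelial and mural lists had 0 of 14 and 0 of 12 called, with medians of -0.25 and -0.01.

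Of the immediate early transcription factors, which neurons induce within minutes of activity, 20 were measured, 16 were positive, 1 passed (0.804% of all genes passed higher), and the median was 0.27. Nr4a3, an orphan nuclear receptor (chromosome 4, 48045078-48086447), was at 6.37, 6.36 and 10.1 CPM in Gh TRAP, at 65.7, 16.1, 24.5 and 81.7 in Sh + Flx TRAP and at 13.3, 7.10, 6.91 and 17.8 in Sh + Flx anxious TRAP, while input was 4.43 to 10.2. All Sh + Flx TRAP libraries were above Gh and the anxious libraries overlapped with it. The interaction was 1.96 (SE 0.46, adjusted p = 0.0333), with 2.71 for Sh + Flx (adjusted p = 0.013) and 1.21 for Sh + Flx anxious (adjusted p = 0.27). The difference between the behaviors was -1.501, with an unadjusted p of 0.00451 and an adjusted p of 0.554. Nr4a3 was called in 19 of the 24 fits without a library, with the largest adjusted p of 0.0683 without Gh TRAP 1, and was called neither by limma voom nor by the robust fit nor without Gh TRAP 2 and 3.

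Its relatives split the Sh + Flx replicates in the same way without passing. Nr4a2 was at 415, 86.6, 65.2 and 536 CPM in Sh + Flx TRAP and at 54.0 to 84.0 in the other TRAP groups (interaction 1.28, adjusted p = 0.178). Fosl2, a member of the Fos family, was at 245, 40.9, 42.7 and 223, and at 32.0 to 50.7 in the others (1.05, adjusted p = 0.258). Nr4a1 was at 111, 20.4, 21.0 and 84.2, and at 8.45 to 30.6 in the others (1.01, adjusted p = 0.381). In each, Sh + Flx TRAP 1 and 4 were high and 2 and 3 lay near the other groups, and no input library shared the rise. Over all genes, replicates 2 and 3 and replicates 1 and 4 were also the most alike pairs of Sh + Flx TRAP. What set Sh + Flx TRAP 1 and 4 apart was not tested. Of the 26 activity-regulated effectors, 0 passed in the interaction, with a median of 0.04. In TRAP 8 of them rose and 1 fell, and in input 8 rose and 0 fell. Of all genes, 3.13% rose in TRAP and 1.73% in input.

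**Figure D4:**
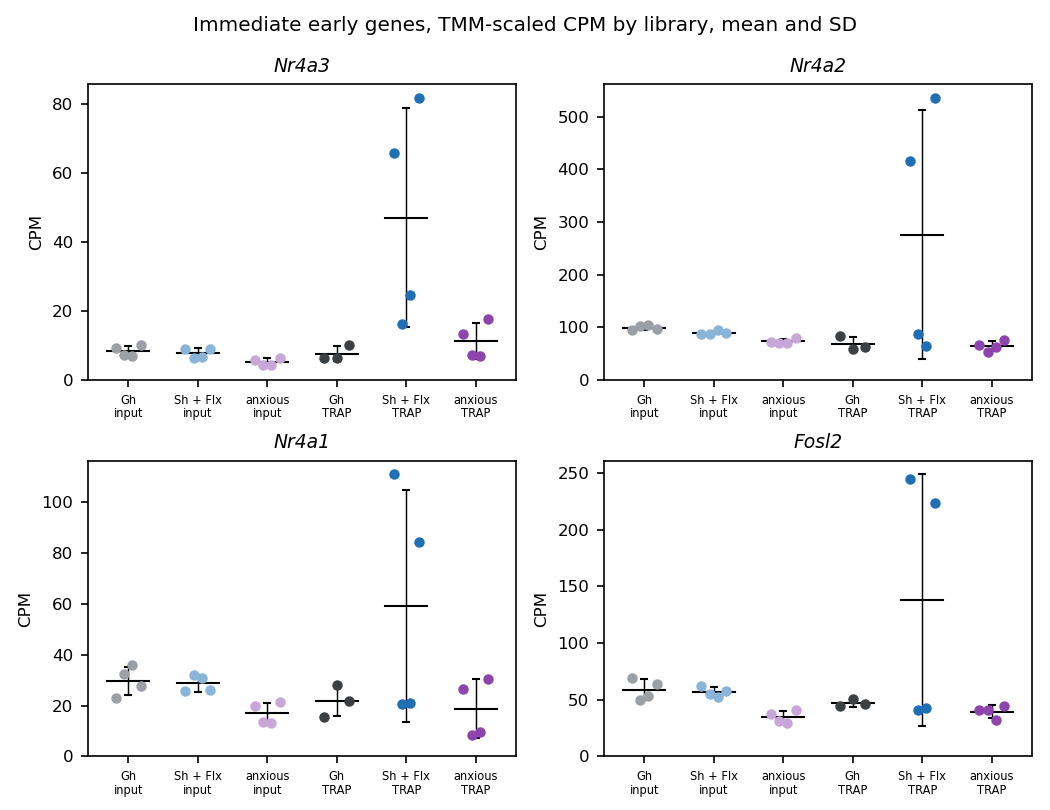
Levels of 4 immediate early genes in CPM by library, with the mean and SD of each group. In Nr4a2, Nr4a1 and Fosl2 Sh + Flx TRAP 1 and 4 stand far above every other library, and in Nr4a3 all 4 Sh + Flx TRAP libraries exceed the Gh ones, at 16.1 to 81.7 against 6.36 to 10.1 CPM.

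Nuclear-encoded subunits of the respiratory chain and ATP synthase had a narrow, positive distribution. Of 75 measured, 73 were positive and the median was 0.32, against 0.02 over all genes, but 3 passed, all higher (0.804% of all genes did). In TRAP 7 rose and none fell (median 0.14), where 3.13% of all genes rose and 3.07% fell. In input 6 fell and none rose (median -0.15), where 1.77% of all genes fell and 1.73% rose. Cycs, cytochrome c, was at 252 to 311 CPM in Gh TRAP, at 316 to 442 in fluoxetine TRAP and at 199 to 279 in input, with an interaction of 0.62 (SE 0.12, adjusted p = 0.00876). Cox8a, a subunit of cytochrome oxidase, was at 127 to 138 CPM in Gh input and at 99.8 to 111 in fluoxetine input, with 0.45 (SE 0.09, adjusted p = 0.015), and Cox7b, another subunit, had 0.53 (SE 0.13, adjusted p = 0.035). Cycs was apart in TRAP, Cox8a and Cox7b in input. Atp5c1, of the ATP synthase, had 0.38 (adjusted p = 0.0578). Cox7b was called in 17 of the 24 fits without a library, with the largest adjusted p of 0.094 without Gh input 2, and Cycs, Cox8a and Cox7b were not called without Gh TRAP 2 and 3. With the length and GC trends removed, the list's median was 0.24.

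Other lists of short, abundant transcripts were less displaced. For the calls below, 0.804% of all genes passed higher in the interaction. Of 77 cytosolic ribosomal proteins 61 were positive with a median of 0.13 (0.03 with the length and GC trends removed), and 1 passed: Rpl10a (0.52, SE 0.13, adjusted p = 0.0403), which was called in 11 of the 24 fits without a library, with the largest adjusted p of 0.106 without Gh input 3, and not without Gh TRAP 2 and 3. Because the transgene encodes L10a, its reads cannot be told from those of the endogenous gene, and in TRAP Rpl10a was at 258 to 271 CPM in Gh and at 246 to 346 in fluoxetine libraries, which overlap. In input 16 ribosomal protein genes fell (1.77% of all genes did) and 0 rose. Of 31 proteasome subunits 27 were positive and 0 passed (median 0.18). Of 27 lysosomal genes, cathepsins and cystatins, 1 passed (Cstb) and the median was 0.22.

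**Figure D5:**
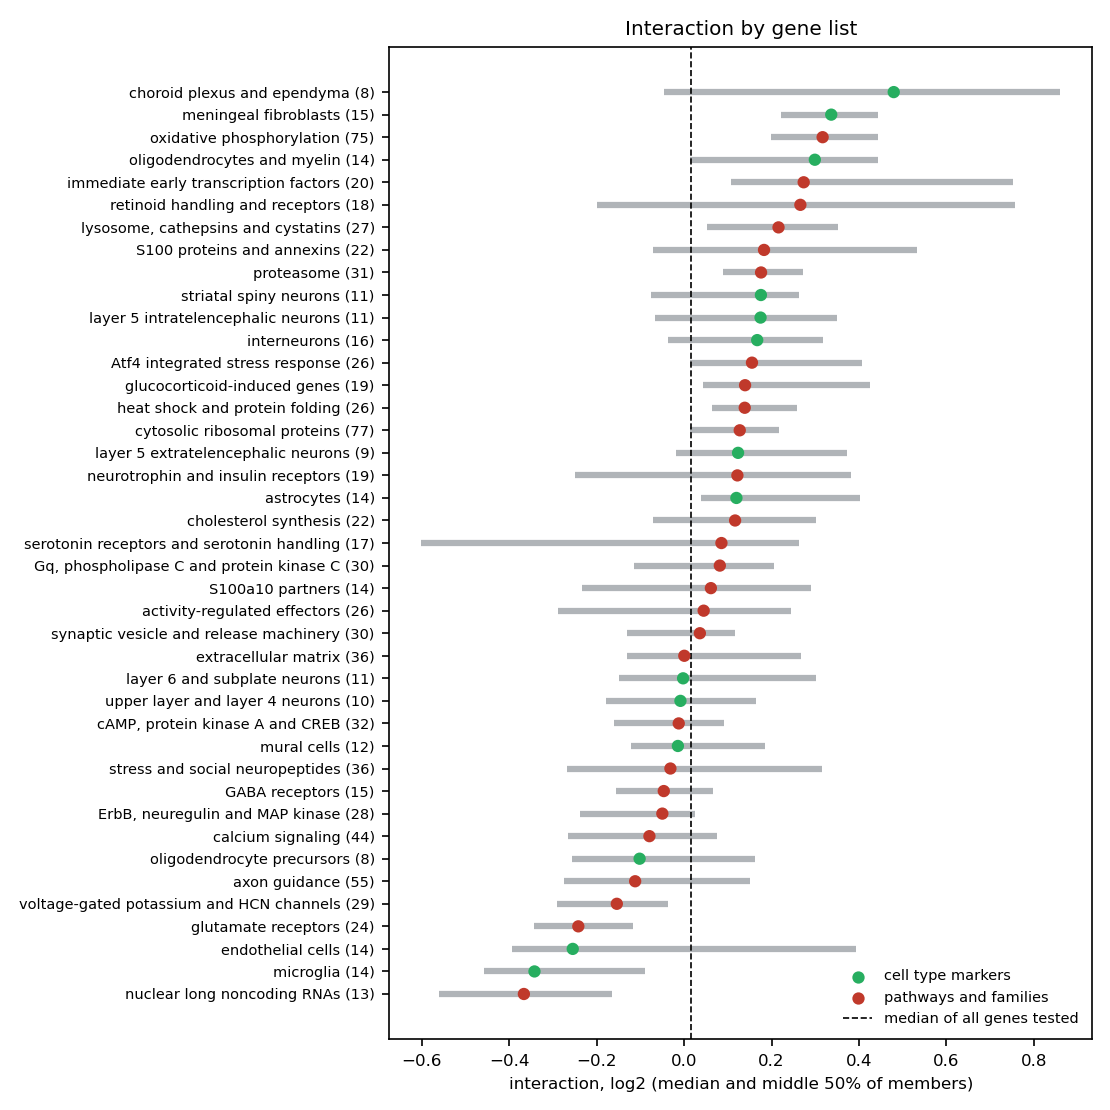
Median interaction (points) and middle 50% of the members (grey bars) of each gene list on the log2 scale, with the number of genes measured; green points are cell type markers, red points pathways and families, and the dashed line is the median of all genes tested. Choroid plexus and ependyma (0.48), meningeal fibroblasts (0.34) and oxidative phosphorylation (0.32) have the highest medians of the lists drawn, and nuclear long noncoding RNAs (-0.37), microglia (-0.34) and endothelial cells (-0.25) the lowest.

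No receptor or channel of synaptic transmission on these lists passed the test. Of 24 glutamate receptor subunits 22 were negative, with a median of -0.24. Of them 2 fell in TRAP (3.07% of all genes did) and 3 rose in input (1.73% of all genes did). Of 29 voltage-gated potassium and HCN channel subunits 23 were negative (median -0.15); 4 fell in TRAP and 2 rose in input. With the length and GC trends removed these medians were -0.14 and -0.07. GABA receptors (15 genes, median -0.05), synaptic vesicle and release machinery (30 genes, median 0.04) and axon guidance genes (55 genes, median -0.11) had no member called. The 28 genes of ErbB, neuregulin and MAP kinase signaling had none either (median -0.05).

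Second messenger pathways gave single genes, where 1.1% of all genes passed (0.804% higher and 0.298% lower). Of 32 genes of cAMP, protein kinase A and CREB, 1 passed higher, Akap12 (gravin, a kinase anchor; 0.53, adjusted p = 0.0457), 1 passed lower, Adcy1, and Adcy2 had -0.47 (adjusted p = 0.052). Akap12 was at 282 to 346 CPM in Gh TRAP and at 338 to 540 in fluoxetine TRAP, which overlap, and was called in 10 of the 24 fits without a library. Of 44 calcium signaling genes 1 passed, Calm2 (calmodulin; 0.38, adjusted p = 0.0478), with a list median of -0.08. Calm2 was at 4732 to 5513 CPM in Gh TRAP, at 4039 to 4366 in Sh + Flx TRAP and at 5493 to 6969 in Sh + Flx anxious TRAP, and at 6384 to 7643 in Gh input against 4527 to 5751 in fluoxetine input. Its interaction was 0.10 for Sh + Flx and 0.66 for Sh + Flx anxious, and the difference of 0.56 had an unadjusted p of 1.24e-05 and an adjusted p of 0.14. Calm2 was called in 11 of the 24 fits. The largest adjusted p was 0.124 for Akap12, without Gh input 2, and 0.139 for Calm2, without Gh input 3. Of 30 genes of Gq, phospholipase C and protein kinase C, 1 passed, Dgka (diacylglycerol kinase alpha; 0.86, adjusted p = 0.0333), called in 19 of the 24 fits with the largest adjusted p of 0.102 without Gh TRAP 4. Akap12, Calm2 and Dgka were not called without Gh TRAP 2 and 3.

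Growth factor and stress pathways behaved likewise, and their calls were all higher, where 0.804% of all genes passed higher. Of 19 neurotrophin and insulin receptor genes and their ligands and binding proteins, 1 passed, Igfbp6, a binding protein of Igf2 (0.93, adjusted p = 0.0352). Irs1, the insulin receptor substrate, had 0.50 (adjusted p = 0.0578), and 30.9% of its exon bases overlap with Gm9747 on the opposite strand. Xbp1, the transcription factor of the unfolded protein response, was the 1 called gene of 26 heat shock and protein folding genes (0.53, adjusted p = 0.0352). In TRAP 6 genes of that list rose, as did 3.13% of all genes. Psat1, of serine synthesis, was the 1 called gene of 26 in the Atf4 integrated stress response (0.61, adjusted p = 0.0457). Mvk, mevalonate kinase, was the 1 called gene of 22 in cholesterol synthesis (1.16, adjusted p = 0.029) and stood at 4.90 to 6.63 CPM in Gh TRAP, 10.6 to 16.9 in Sh + Flx TRAP and 6.35 to 9.43 in Sh + Flx anxious TRAP. Of 19 glucocorticoid-induced genes 0 passed. Mt2, a metallothionein, fell in input by 0.70 and had 0.71 (adjusted p = 0.0578). Of its exon bases, 73.5% overlap with Gm45774 on the opposite strand. The calls of Igfbp6, Xbp1, Psat1 and Mvk held in 15, 16, 8 and 21 of the 24 fits without a library, and the largest adjusted p was 0.088, 0.088, 0.106 and 0.0801, without Gh input 3 for Igfbp6, Xbp1 and Mvk and without Gh input 2 for Psat1. None of the 4 was called without Gh TRAP 2 and 3.

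No gene of serotonin reception or handling passed. Of 17 measured, 10 were positive and 7 negative, and the median was 0.09. By TRAP over input, 0 of the 17 were called higher and 10 were called lower, with a median of -0.43 on the log2 scale. Htr2a was thus not called enriched in TRAP here, whereas the paper reports enrichment of its mRNA in S100a10 cells. Htr2a, the excitatory receptor of deep pyramidal neurons, was at 20.6, 13.8 and 22.6 CPM in Gh TRAP and at 17.5 to 32.7 in fluoxetine TRAP. Its interaction was -0.00331, with an interval from -0.42 to 0.42. Htr1a, the inhibitory receptor, was at 8.03 to 12.8 CPM in Gh TRAP and at 8.37 to 13.6 in fluoxetine TRAP, with 0.04 and an interval from -0.42 to 0.50. Both sets overlapped, and the intervals do not exclude changes of about 0.4 in either direction. They are not adjusted over the genes tested, so larger changes can also miss the threshold for a call. Htr7 had -0.74 (adjusted p = 0.315). Of 14 measured partners of S100a10 none passed (median 0.06). The 36 stress and social neuropeptide genes and the 36 extracellular matrix genes had none called, with medians of -0.03 and 0.000489.

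Markers of the cortical neuron classes were not called in the interaction. The medians were 0.17 for layer 5 intratelencephalic neurons (11 genes), 0.12 for layer 5 extratelencephalic neurons (9 genes), -0.01 for upper layers and layer 4 (10 genes), -0.00229 for layer 6 and subplate (11 genes) and 0.17 for interneurons (16 genes). Microglia (14 genes, median -0.34), oligodendrocyte precursors (8 genes, median -0.10), choroid plexus and ependyma (8 genes, median 0.48) and striatal spiny neurons (11 genes, median 0.18) had none called. Of the pituitary list 2 genes were measured and of the blood list 1, and none was called.

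The 2 behavioral groups share the Gh libraries, and their values are given side by side. With Sh + Flx alone 46 genes were called (0.274%), and with Sh + Flx anxious alone 161 (0.958%). The difference between them was itself tested: 0 genes were called (0%) by edgeR, 1080 had an unadjusted p under 0.05, and DESeq2 called 11. S100a6 had 1.22 and 1.67, Cstb 1.62 and 1.22, Aspa 1.04 and 1.06, Cab39l 1.22 and 1.28, Hlf 0.47 and 0.70, Rarb 0.70 and 1.05 and Mylk -0.86 and -1.13, in Sh + Flx and Sh + Flx anxious respectively. By edgeR, no gene's interaction was shown to differ between the behaviorally normal and the anxious mice.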

How the data were processed

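Libraries were made from polysome immunoprecipitates (TRAP) and total cortical RNA (input) by an amplification kit without strand information (Ovation RNA-Seq V2) and sequenced as paired reads. Per the labels and the study's methods, the authors mapped them to mm10 with TopHat2 2.0.11 and counted reads per UCSC gene model. Their counter and its strand option are not stated in the labels or methods. Raw counts per gene, as deposited, were used. The deposited tables of the authors' group means (FPKM, Cufflinks 2.2.1), fold changes and p-values were not used.

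Counts of 23 samples (Gh TRAP 2 and 3 summed) were filtered with filterByExpr, scaled by TMM and fitted with edgeR 4.0.16 (R 4.3.3), quasi-likelihood, with 6 group means. Log2 values are differences between the fitted group means on the log2 scale. Each SE is the absolute log2 value divided by the square root of the F statistic of its test. P-values are two-sided and Benjamini-Hochberg adjusted over 16800 genes, and a gene was called at an adjusted p under 0.05. Intervals are at 95%. Reads that belong to no gene stayed out of library sizes (25.2 to 51.6% outside features, 0.446 to 0.724% ambiguous). The counts held between 9776244 and 64788703 reads per library, and the shallowest libraries give low genes the least precision. Alternatives used DESeq2 1.42.0, limma 3.58.1 and the settings named in the closing section. Scripts were tested on simulated data.

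Named genes were S100a10, Htr2a and Htr1a, the 15 called genes with the smallest p in each direction apart from predicted gene models, and up to 4 members of each described list by p. Other named genes were chosen after their values were seen. A gene of the interaction is not reported here. Members, lists and tests were chosen with earlier results of these data known. Promoters came from RefSeq (GRCm38.p6) and lengths from GENCODE, matched by symbol: 143 of the 185 called genes had a promoter entry and 184 a length.

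TRAP and input of the same number were checked for pairing: over 12 pools their deviations from the group means correlated at -0.0267 to 0.0473, 0 were over 0.1, and the best matching input had the same number in 3. The numbers were therefore not taken to pair the samples.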

Additional observations from a re-analysis of the deposited data

Results flagged for a closer look

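Over 64 named genes, 319 groups of 4 libraries were searched for a library far from the other 3, and 12 were found; chance marks about 1 in 20. In TRAP, S100a10 was at 62.7 CPM in Sh + Flx anxious TRAP 1 against 69.8 to 71.0 in the other 3, Nlrp6 was at 5.06 in Sh + Flx TRAP 1 against 1.66 to 2.24, and Adam3 was at 0.0193 in Sh + Flx TRAP 4 against 0. In Gh input, S100a6 was at 4.35 in library 1 against 6.04 to 6.32, and Hlf was at 1034 in library 3 against 882 to 906. In Sh + Flx input, Htr1a was at 22.3 in library 1 against 15.8 to 16.7, Ptprt was at 246 in library 1 against 229 to 230, Sdpr was at 9.20 in library 3 against 6.97 to 7.19, and Anxa5 was at 36.7 in library 2 against 30.03 to 30.8. In Sh + Flx anxious input, Cstb was at 8.41 in library 2 against 13.4 to 13.8, Sod3 was at 2.19 in library 1 against 2.85 to 2.96, and Mvk was at 4.67 in library 3 against 3.39 to 3.51.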

How the results depend on the processing

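Counts of called genes depended on the processing, and each range over fits that leave out a library runs from the lowest to the highest. The interaction (185 genes) gave 476 with DESeq2, 113 with limma voom, 545 with Gh TRAP 2 and 3 kept separate, 1 with replicates 1 and 4, and 2 and 3, summed, 8 with all 4 experimental groups in the fit, 49 without Gh TRAP 2 and 3, and 59 to 272 without 1 library. The TRAP change (1042) gave 412 with voom, 2171 with those libraries separate, 337 with replicates summed, 378 with all groups, 471 without Gh TRAP 2 and 3, and 779 to 1316 without 1 library. The input change (587) gave 1824 with voom, 42 with replicates summed, 177 with all groups and 290 to 680 without 1 library. Sh + Flx alone (46) gave 198 with DESeq2, 26 with voom, 133 with those libraries separate, 0 with replicates summed, 9 with all groups, 21 without Gh TRAP 2 and 3, and 17 to 87 without 1 library; Sh + Flx anxious alone (161) gave 410 with DESeq2, 426, 1, 5 and 36 under the other 4 settings and 61 to 294. The difference between behaviors (0 with edgeR, 1080 at an unadjusted p under 0.05) gave 11 with DESeq2, 1 with all groups and 0 to 2. The cause of these shifts was not tested, beyond the fewer samples that summing and leaving out imply. Replicates 1 and 4, and 2 and 3, were summed because they resembled each other. The settings with separate, summed and left-out Gh libraries bear on how many samples that group holds.

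No pairing of TRAP and input by number was shown, and with the pool as a replicate block the interaction gave 470 genes, Sh + Flx alone 113 and anxious alone 388; with the replicate number as a block the counts were 512, 101 and 399, and the TRAP change 2090. For the pool block, no TRAP or input change is defined within a pool.

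The 61 called genes named in the text kept their direction in every setting in which they were tested (Adam3 was tested in 12 of the 24 fits without 1 library), and 33 of them were called in every fit without 1 library, but 0 were called under all 14 other settings. The value of Htr2a (-0.00331) changed sign with voom (0.04996), Gh TRAP 2 and 3 separate (0.0958), replicates summed (0.0577), the pool block (0.0981), the number block (0.0806), length and GC offsets (0.0525) and in fits without 1 library (-0.0889 to 0.166). That of Htr1a (0.0423) did so with library size alone (-0.0196), voom (-0.0777), Gh TRAP 2 and 3 separate (-0.0158), replicates summed (-0.103), the number block (-0.0325) and in fits without 1 library (-0.129 to 0.14). The offsets and the fits without both Gh TRAP 2 and 3 were chosen after seeing the data. Depth limits genes under about 1 CPM, such as Nlrp6 and Adam3.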

Other observations

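The called genes below, picked with their values in view, stand for no group: of 36 extracellular matrix genes and 15 markers of meningeal fibroblasts, 0 were called. Ecm1, an extracellular matrix glycoprotein, was at 4.97 ± 0.595 CPM in Gh TRAP (SD, n = 3), 22.2 ± 1.51 in Sh + Flx TRAP and 24.1 ± 6.31 in Sh + Flx anxious TRAP (n = 4 each), with an interaction of 1.60 (SE 0.31, adjusted p = 0.0087 by edgeR). Aqp1, a water channel, was at 0.515 ± 0.44, 5.52 ± 3.23 and 5.88 ± 0.404 CPM, with 3.43 (SE 0.69, adjusted p = 0.0115). Vamp5, a SNARE protein, was at 26.2 ± 2.17, 50 ± 6.71 and 63.5 ± 10.4 CPM, with 1.40 (adjusted p = 0.0333). Slc2a12, a glucose transporter, and Sod3, the extracellular superoxide dismutase, had 1.73 (adjusted p = 0.0105) and 1.08 (adjusted p = 0.0425). TRAP over input was between 3.23 and 4.69 on the log2 scale for Ecm1, Aqp1, Vamp5, Slc2a12 and Sod3. Aqp1, Vamp5 and Sod3 were called in 23, 17 and 13 of the 24 fits without a library, with the largest adjusted p of 0.0529, 0.133 and 0.114 without Gh input 2, Gh input 3 and Gh input 1, and Vamp5, Slc2a12 and Sod3 were not called without Gh TRAP 2 and 3.

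Foxc2, a forkhead transcription factor, had 1.14 (SE 0.24, adjusted p = 0.0171), at 96.4 ± 9.92 CPM in Gh TRAP, and fell in input by 0.92 (adjusted p = 0.00888). The zinc finger factors Zic1 and Zic4 had 0.81 (adjusted p = 0.0313) and 0.87 (adjusted p = 0.0352), with TRAP over input of 4.03 and 4.19, against 6.94 for Foxc2. Cxcl12, a chemokine of meningeal and vascular cells, fell in input by 0.82 (adjusted p = 0.000106) with -0.12 in TRAP (adjusted p = 0.639), for an interaction of 0.70 (adjusted p = 0.0431). Foxc2, Zic1, Zic4 and Cxcl12 were called in 22, 19, 14 and 8 of the 24 fits without a library, with the largest adjusted p of 0.067, 0.0746, 0.124 and 0.0985 without Gh input 1, Gh TRAP 1, Gh input 2 and Gh input 3, and none of the 4 was called without Gh TRAP 2 and 3. The part of meningeal cells in these values was not tested.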
